A study of Mus musculus with 2 samples.

Results

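The clustered protocadherins were followed in hindbrain of newborn mice through every gene whose symbol begins with Pcdha, Pcdhb, Pcdhga, Pcdhgb or Pcdhgc and a number, or with Pcdhac. This choice by name found 58 of the 43346 Ensembl genes in the gene tables, namely 14 alpha, 22 beta and 22 gamma genes, and 88 of their transcripts in the transcript tables. The rule itself uses names only. The alpha and gamma clusters each end in C-type genes (Pcdhac1 and Pcdhac2, and Pcdhgc3, Pcdhgc4 and Pcdhgc5), and the other alpha and gamma genes are called alternate here.

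Clustered protocadherins are cadherin-like adhesion proteins of the neuronal surface. They bind copies of themselves on neighbouring membranes, and different neurons carry different combinations, which lets a neuron tell its own branches from those of others. Alternate and beta promoters are known to be chosen largely at random in each neuron with the help of the DNA-binding factor CTCF and the cohesin ring, while C-type promoters are known to follow their own, more cell-type-bound control. In the alpha and gamma clusters each variable exon codes for the extracellular part, the membrane span and a short cytoplasmic stretch, and is spliced to constant exons that code for a shared cytoplasmic end. Beta proteins lack such a shared end. In mice, Pcdhac2 is known for the spacing of serotonin axons, and Pcdhgc4 for the survival of neurons after birth.

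The series holds 1 group of 2 libraries, replicate 1 and replicate 2, of ribosomal RNA-depleted total RNA longer than 200 nt from hindbrain at postnatal day 0. The mice were of strain B6NTac;B6NCrl/Lap, of mixed sex, with no genetic change or treatment named. Replicate 1 pooled 15 mice, and for replicate 2 no number is stated. The labels number them as biological replicates and call them independent isolates, but list the same donor for both, so how much of their spread is technical is not known. With 1 group there was no contrast to test, and values are given per library and as mean ± SD (n = 2 libraries).

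Totals were 53617723 expected counts on mouse genes in replicate 1 and 76299141 in replicate 2. Clustered protocadherins took 87178 of them (0.163%) in replicate 1 and 118925 (0.156%) in replicate 2. All 6 neuronal markers and all 6 hindbrain position markers reached 1 TPM (a level corrected for transcript length and scaled to a fixed sum) in both libraries, and none of the 3 forebrain markers did. Of the 4 serotonin neuron markers, 3 reached that level as well, with sums of 13.92 and 9.84 TPM over the list. On this scale, the typical coding gene outside these clusters read 1.44-fold higher in replicate 1 than in replicate 2. What lay behind this factor was not tested. The detected clustered protocadherins showed the same median factor, 1.44. Shares within the clusters are free of it, and ratios between libraries below use counts scaled by TMM (trimmed mean of M-values). In tissue of many cell types, fewer cells expressing a gene and less RNA per cell cannot be told apart.

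Most clustered protocadherins were measurable, and levels were uneven: 8 genes in replicate 1 and 9 in replicate 2 held 50% of the summed TPM. At least 1 TPM in both libraries was reached by 43 of the 58 genes (74.1%), against 54.7% of all 21474 protein-coding genes. The median level of a clustered protocadherin was 2.54 TPM in replicate 1 and 1.93 TPM in replicate 2, beside 2.38 and 1.72 TPM for all protein-coding genes. Summed over the 58 genes the level was 250.9 TPM in replicate 1 and 170.2 TPM in replicate 2. In replicate 1 alone, 8 genes passed 1 TPM, namely Pcdha2, Pcdha11, Pcdha12, Pcdhb2, Pcdhb3, Pcdhb5, Pcdhb6 and Pcdhb13, and no gene passed it in replicate 2 alone. TPM of the typical coding gene read 1.44-fold higher in replicate 1, and the same count over all coding genes is not given here. By scaled counts, Pcdha11 and Pcdhb6 were higher in replicate 2 (log2 ratios of 0.12 and 0.15), and the others of this list were lower. Pcdhb6 passed 1 TPM in replicate 1 through 16.35 counts on a transcript of 681 nt, worth 0.54 TPM. Its main transcript had 0.99 TPM there. Below 1 TPM in both libraries were 7 genes, namely Pcdha1, Pcdha8, Pcdha10, Pcdhac1, Pcdhb1, Pcdhb14 and Pcdhgb8.

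By cluster, 21 of 22 gamma genes, 15 of 22 beta genes and 7 of 14 alpha genes were detected in both libraries. The gamma cluster held 68.1% ± 0.438 of the summed TPM, the beta cluster 21.04% ± 0.636 and the alpha cluster 10.8% ± 0.198. Gamma TPM summed to 6.24 times alpha TPM in replicate 1 and to 6.35 times in replicate 2, a difference far larger than that between the libraries. The gap was also there for the typical gene, since median levels were 4.46 and 2.78 TPM for gamma, 2.00 and 1.52 TPM for beta, and 1.79 and 1.01 TPM for alpha genes in replicates 1 and 2. Beta and alpha medians lay close together in replicate 1, with a ratio of 1.11 against 1.5 in replicate 2.

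**Figure D1:**
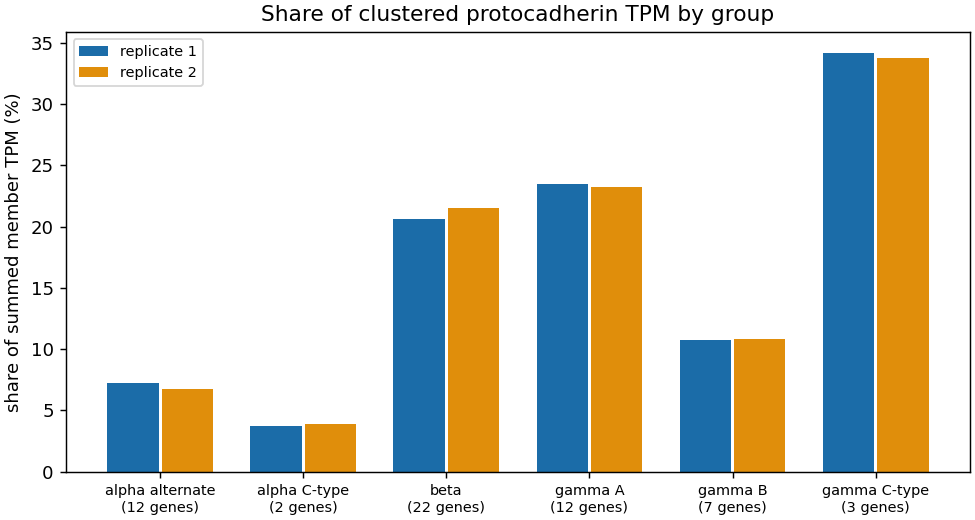
Bars give the share of summed clustered protocadherin TPM (%) held by each group of genes in replicate 1 and replicate 2. The 3 gamma C-type genes held 34.2% and 33.8%, more than the 22 beta genes at 20.6% and 21.5%.

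The C-type genes, 5 of 58, held 37.8% ± 0.170 of the summed TPM, and 2 of them carried most of it. Pcdhgc4, a gamma C-type gene whose protein is known to reach the cell surface in company with other isoforms, had 48.27 TPM in replicate 1 and 30.82 TPM in replicate 2, from 16139 and 20873 expected counts. It was the highest member in both libraries and stood above 95.4% and 95.1% of all protein-coding genes. Pcdhgc3, the broadly expressed C-type gene of the same cluster, followed with 35.72 and 24.71 TPM, and was the next highest in both. Together Pcdhgc4 (18.7% ± 0.799) and Pcdhgc3 (14.4% ± 0.198) held 33.1% ± 0.594 of the clustered protocadherin TPM.

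The remaining C-type genes ranged widely. Pcdhac2 had 8.76 and 6.07 TPM, the highest level of the alpha cluster, and was the gene of rank 4 of 58 in replicate 1 and of rank 3 in replicate 2. Pcdhac1, its neighbour in the alpha cluster, had 0.62 and 0.56 TPM, so that Pcdhac2 exceeded it 14.1-fold and 10.8-fold. Pcdhgc5, the last gene of the gamma cluster and in mice better known from mature forebrain neurons, had 1.73 and 1.93 TPM. Pcdhgc4 exceeded this neighbour 27.9-fold in replicate 1 and 16-fold in replicate 2. A high level was thus not shared by all C-type genes.

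**Figure D2:**
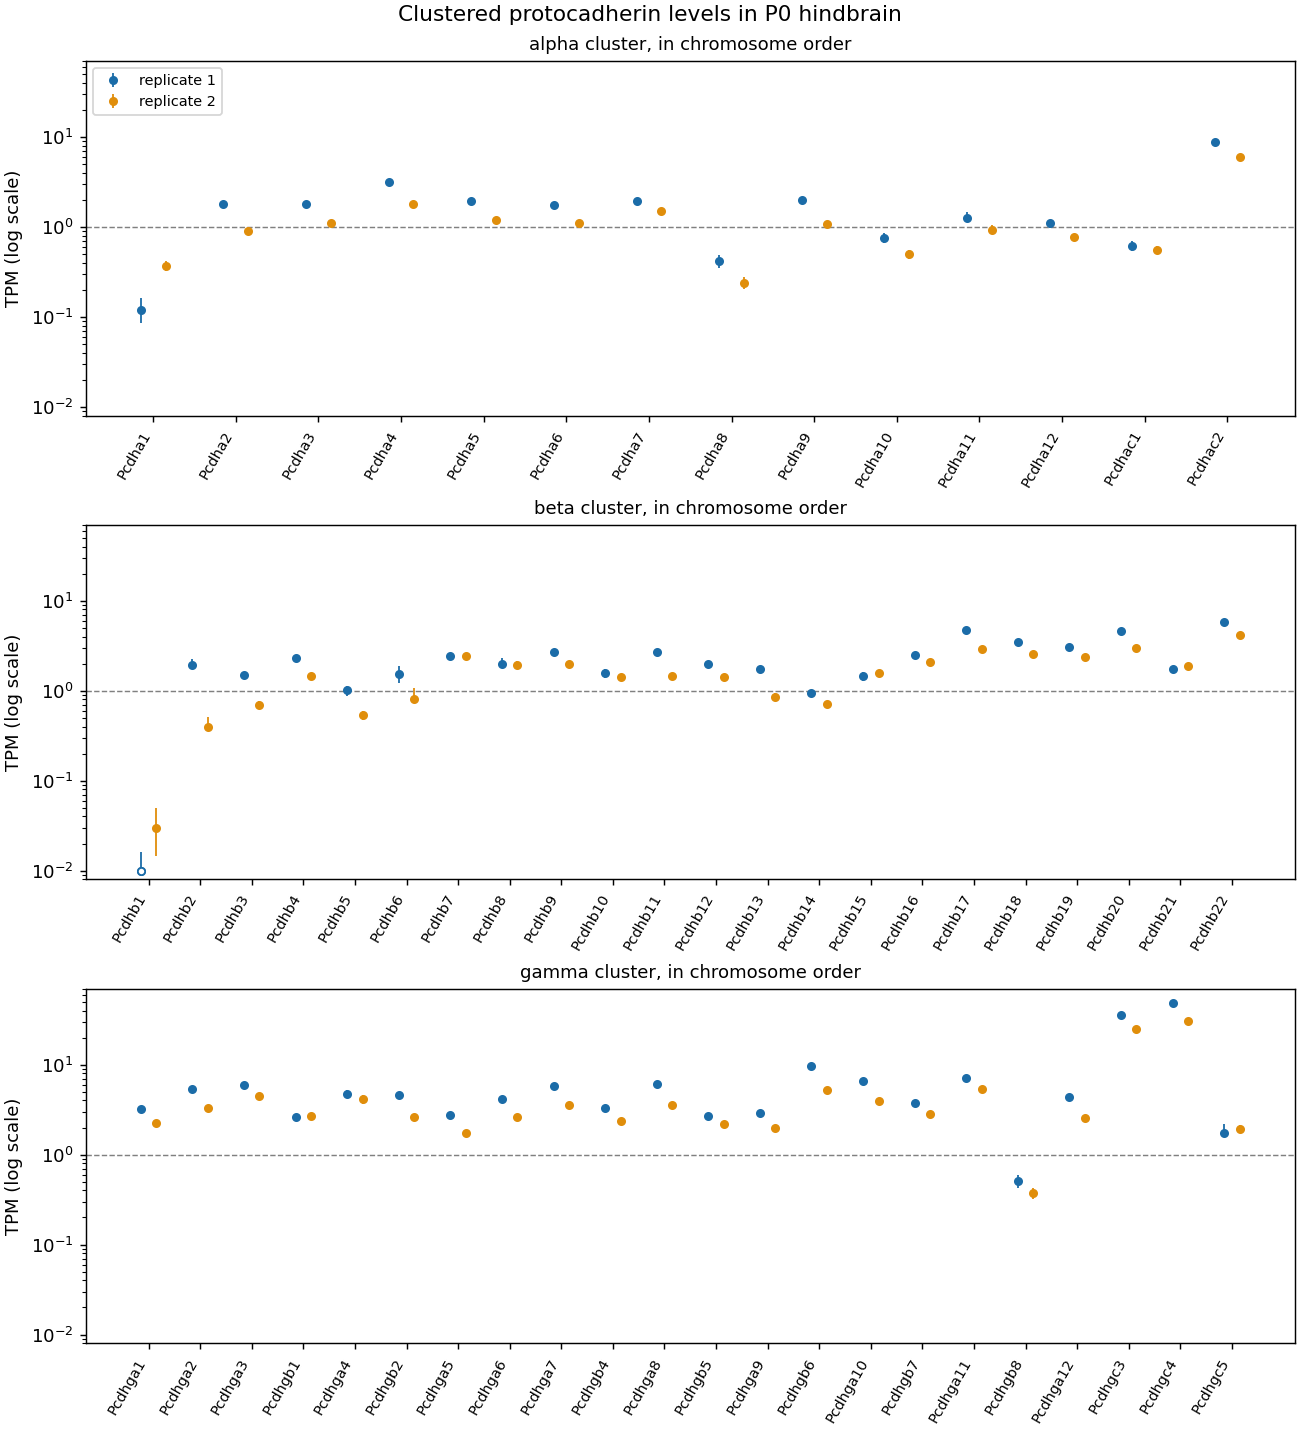
Points give the TPM of each gene (log axis) in replicate 1 and replicate 2, in chromosome order within each cluster, with bars for the deposited TPM interval. The dashed line marks 1 TPM, and the open point marks Pcdhb1 in replicate 1, which is listed at 0 and drawn at the lower edge. Pcdhgc3 and Pcdhgc4 stand alone above 20 TPM, and the beta genes are higher toward the right-hand end.

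Among the alternate gamma genes the A type was moderately higher per gene than the B type. All 12 gamma A genes were detected, from 2.79 to 7.14 TPM in replicate 1 and from 1.73 to 5.38 TPM in replicate 2, and 6 of 7 gamma B genes were. Medians were 5.03 and 3.44 TPM for gamma A, against 3.28 and 2.65 TPM for gamma B, a ratio of 1.53 in replicate 1 and 1.3 in replicate 2. The highest alternate gamma gene was Pcdhgb6, with 9.66 TPM in replicate 1 and 5.26 TPM in replicate 2. Pcdhga11 followed by mean level with 7.14 and 5.38 TPM, and was above Pcdhgb6 in replicate 2, so the order of this pair was not stable. The first alternate gene, Pcdhga1, had 3.18 and 2.24 TPM, and the last, Pcdhga12, had 4.34 and 2.56 TPM.

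The lowest gamma gene was Pcdhgb8, which the annotation calls a polymorphic pseudogene, with 0.51 and 0.37 TPM from 180 and 264 expected counts. It was the only gamma gene under 1 TPM. Order along the chromosome said little about level here, with a Spearman rho of 0.05 between order and mean TPM over the 19 alternate gamma genes, as a description across neighbouring genes that share reads.

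Beta genes were higher toward the end of their cluster that lies nearest the gamma genes. Over the 22 beta genes the rank of the mean TPM went with chromosome order at a Spearman rho of 0.67, which was 0.56 in replicate 1 and 0.74 in replicate 2 alone. The highest beta gene by TPM was the last, Pcdhb22, with 5.81 TPM in replicate 1 and 4.12 TPM in replicate 2. This level rests on a division between transcripts of 2266 and 6609 nt, the shorter holding 70.54% and 84.66% of it. In expected counts Pcdhb22, with 1537 and 1794, was below Pcdhb17, with 1674 and 2093. By TPM, Pcdhb17 came next with 4.70 and 2.90 TPM. Pcdhb20 was close to it with 4.56 and 2.98 TPM, and the 2 changed places between the libraries. Pcdhb18 had 3.46 and 2.53 TPM.

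All 7 genes from Pcdhb16 to Pcdhb22 were detected, against 8 of the 15 genes before them, a division made after the values were seen. Those 7 genes held 10.3% and 11.1% of the clustered protocadherin TPM in replicates 1 and 2, and the other 15 held 10.3% and 10.4%. The first beta gene, Pcdhb1, was the lowest of all 58. It had 0 counts in replicate 1, where 3 counts would have been 0.0161 TPM, and 11 counts or 0.03 TPM in replicate 2. Pcdhb5 was the next lowest beta gene by mean TPM, with 1.01 and 0.54 TPM. Expected counts, which carry no length correction, gave a rho of 0.82 in place of 0.67.

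Alternate alpha genes were the least abundant group per gene apart from Pcdhac1. Their 12 levels ran from 0.12 to 3.18 TPM in replicate 1 and from 0.24 to 1.82 TPM in replicate 2, and together they held 7.01% ± 0.310 of the clustered protocadherin TPM. The highest was Pcdha4, with 3.18 and 1.82 TPM, which Pcdhac2 exceeded 2.75-fold and 3.34-fold. Of the read-long windows in the variable exon of Pcdha4, 96.1% also occur in the read-through gene Gm42416, which was listed at 0 counts in both libraries, so the level of Pcdha4 depends on that division of reads. Pcdha7 had 1.97 and 1.51 TPM, and Pcdha5 had 1.93 and 1.2 TPM. At the low end, Pcdha1 had 0.12 and 0.37 TPM and Pcdha8 had 0.42 and 0.24 TPM, so that the pair changed places between the libraries. The last alternate gene, Pcdha12, had 1.10 and 0.77 TPM.

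Chromosome order and level were weakly related in the alternate alpha genes, with a rho of -0.16 over 12 genes. Of the 7 genes from Pcdha1 to Pcdha7, 5 were detected in both libraries, and of the 5 from Pcdha8 to Pcdha12, only Pcdha9 was, again a division made after the values were seen. Pcdha9 had 2.01 and 1.09 TPM. The annotation gives the symbol Pcdha11 to 2 identifiers, and the one whose transcript carries the RefSeq accession of Pcdha10 is called Pcdha10 here. That gene had 0.76 and 0.50 TPM.

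All 58 genes lie on the forward strand of mouse chromosome 18 (mm10), over 911.7 kb. The alpha genes reach from 36930184 to 37187661, the beta genes from 37264938 to 37524479 and the gamma genes from 37661793 to 37841873. Each alpha and each gamma gene is annotated from its own variable exon to the shared end of its cluster, so that genes of a cluster overlap. The variable exon of the longest full transcript measured 2346 to 3028 nt in alpha genes and 2499 to 2961 nt in gamma genes. It is followed by 3 constant exons, of 59, 89 and 2712 nt in the alpha cluster and of 59, 89 and 1971 nt in the gamma cluster.

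Reads that lie within the constant exons fit every gene of the cluster. Counting windows as long as a read, a median of 55.1% of an alpha transcript and 44.1% of a gamma transcript was also found in another member, against 0.227% of a beta transcript. The deposited counts follow this division. Counts lay more than 0.005 from a whole number for 13 and 14 of the 14 alpha genes in replicates 1 and 2 and for all 22 gamma genes in both, and only for Pcdhb21 and Pcdhb22 among the beta genes, which overlap each other. The posterior SD of the count, the deposited spread from dividing shared reads, was 0 for 20 of 22 beta genes in each library. As a share of the posterior mean its median was 1.83% and 1.76% for alpha and 1.68% and 1.39% for gamma genes. Within the variable exons, Pcdhga4 shared 37.4% of its windows with Pcdhgb1. The largest posterior SD was 7.96%, for Pcdha1 in replicate 1, which had 45.76 expected counts.

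C-type genes were, by the median pair, less alike in sequence than the genes of any other group were among themselves. Coding parts of the variable exons (for beta genes, of the whole gene) were aligned pair by pair from end to end, and identity was taken over all aligned positions, gaps included. Alternate alpha genes were 75.8% identical in the median of 66 pairs and never under 72.0%, and beta genes were 72.6% identical in the median of 231 pairs. Gamma A pairs and gamma B pairs both had a median of 70.1%, against 56.2% for pairs of a gamma A with a gamma B gene. The 10 pairs of C-type genes had a median of 54.5% and a highest value of 57.0%, for Pcdhgc4 with Pcdhgc5. That closest C-type pair differed 27.9-fold and 16-fold in TPM.

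No C-type gene had a closest other member above 57.0% identity, and Pcdhb1 had one at 58.5%, with Pcdhb2. For the other 52 genes the closest member was between 71.4% and 88.9% identical. The most alike pairs lay in the beta cluster, Pcdhb6 with Pcdhb8 at 88.9% and Pcdhb7 with Pcdhb9 at 88.8%. Pcdhb6 had 1.53 TPM in replicate 1, of which 0.54 TPM lay on a transcript of 681 nt, and 0.81 TPM in replicate 2. Pcdhb8 had 2.00 and 1.93 TPM. Pcdhb7 had 2.44 and 2.45 TPM, and Pcdhb9 had 2.72 and 2.00 TPM. In the alpha cluster the most alike pair, Pcdha7 with Pcdha8 at 83.5%, held one of the highest and one of the lowest alternate genes.

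**Figure D3:**
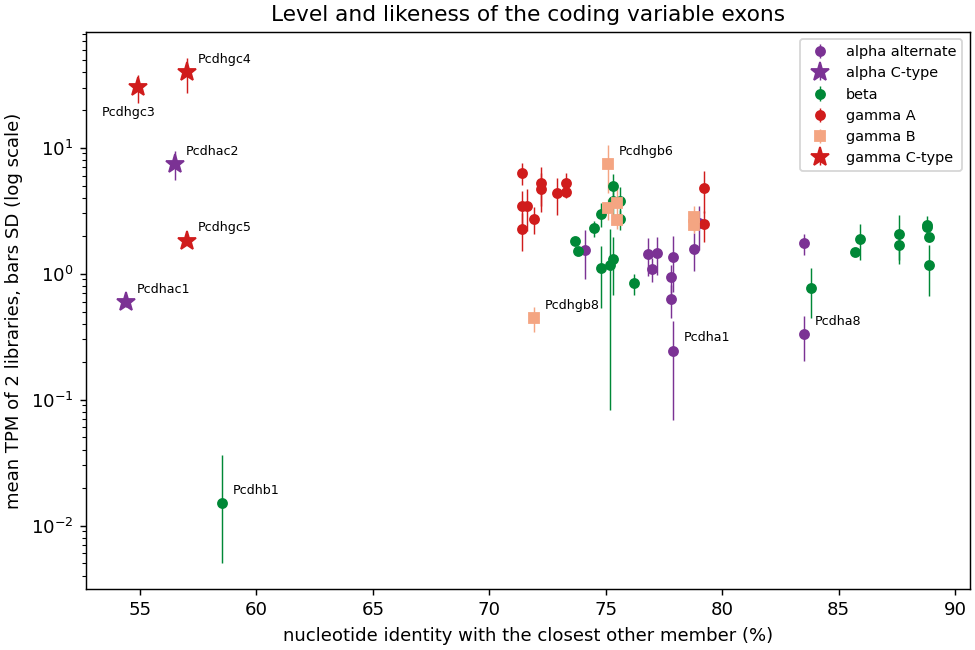
Each point is a gene, with the nucleotide identity to its closest other member (%) on the x axis and its mean TPM of 2 libraries on a log y axis, bars giving the SD. The 5 C-type genes and Pcdhb1 lie left of 60% identity and hold the highest, the lowest and intermediate levels, while the other genes lie right of 70%.

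At transcript level most alpha and gamma RNA was assigned to full-length forms, those joining a variable exon of over 2000 nt to all 3 constant exons. Full-length forms, 40 of 62 alpha and gamma transcripts, held 92.3% ± 0.361 of alpha TPM and 86.5% ± 1.69 of gamma TPM. These shares were partly fixed by the annotation. For 19 genes, among them Pcdhac2, the only transcript listed is full-length, so no other form could take their reads. Transcripts covering the variable exon region without any constant exon, 13 in number of which 8 are annotated as retained introns, held 9.38% ± 2.25 of the TPM of both clusters. Counting full-length forms alone left 28 alpha and gamma genes at 1 TPM or more in both libraries. With the beta genes, which were kept whole, the same 43 genes passed, a comparison chosen after the data were seen. Beta genes and genes whose only transcript is full-length could not change in it.

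Of the 36 alpha and gamma genes, 19 had 1 transcript and 17 had several. In 15 of those 17, full-length forms held over 50% of the gene's TPM in both libraries. Pcdha11 stood apart from them, since its full-length forms held 7.87% in replicate 1 and 14.1% in replicate 2, or 0.10 and 0.13 TPM. Its RNA was assigned mainly to 2 transcripts annotated as retained introns, one of 4038 nt with 62.34% and 57.08% and one of 3323 nt with 29.86% and 28.22%. In Pcdhgb5, 1 such transcript held 45.39% in replicate 1 and 50.53% in replicate 2.

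The order of the highest pair, Pcdhgc4 and Pcdhgc3, rested on the shorter forms. The full-length form of Pcdhgc4 had 35.28 and 21.88 TPM, 73.1% and 71.0% of the gene. Its retained-intron transcript had 6.59 and 6.28 TPM, and a shorter coding transcript with a partial variable exon had 6.40 and 2.66 TPM. For Pcdhgc3 the full-length form held 95.8% and 91.2%, or 34.22 and 22.53 TPM, so that full-length Pcdhgc4 stood at 1.03 times full-length Pcdhgc3 in replicate 1 and at 0.971 times in replicate 2. For some alternate genes the split was unsteady: Pcdhga1 had 67.3% in the full-length form in replicate 1 and 100% in replicate 2, and Pcdhgb1 had 60.4% and 96.3%.

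**Figure D4:**
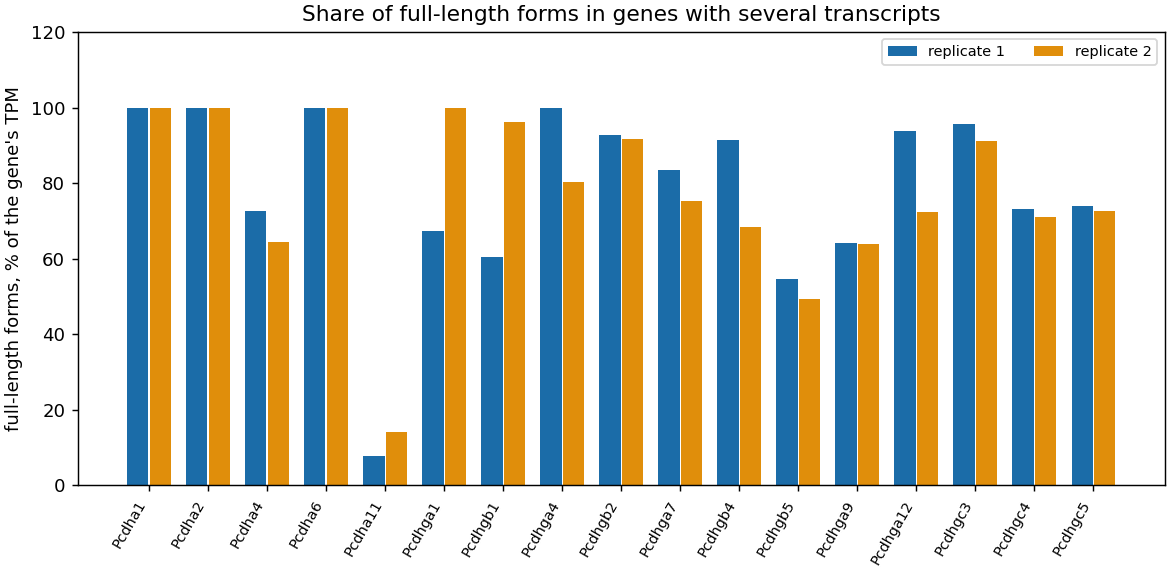
Bars give the share of each gene's TPM (%) in full-length forms, in replicate 1 and replicate 2, for the 17 alpha and gamma genes with several transcripts. Pcdha11 is the one gene under 20% in both libraries, and Pcdhga1 and Pcdhgb1 differ most between the libraries.

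The order of the genes was alike in the libraries, with a Spearman rho of 0.945 between their TPM over 58 genes that share scaling and, in alpha and gamma, reads. After scaling, the log2 ratio of replicate 2 over replicate 1 had a median of -0.04 over the 57 members that averaged 10 counts or more, which leaves out Pcdhb1, beside 0.01 over all 17629 such genes. The median size of the ratio, sign aside, was 0.19 for clustered protocadherins and 0.23 for all genes.

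Ratios over 1.5-fold were few. In replicate 2, 5 of the 57 genes (8.77%) were over 1.5-fold higher, beside 14.7% of all genes counted 10 times or more on average and 9.37% of those counted 50 times or more, as all 57 were. Another 2 (3.51%) were over 1.5-fold lower, beside 9.88% and 6.47%. The highest ratio was that of Pcdha1, with 45.76 expected counts in replicate 1 and 287.11 in replicate 2, a scaled log2 ratio of 2.09. Pcdhgb1 followed at 0.70, with 845 and 1956 counts, and Pcdhgc5 at 0.67, with 664 and 1507 counts. The other 2, outside the naming rule and named for the small count, were Pcdhb15 at 0.63 and Pcdhb21 at 0.62.

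At the other end, Pcdhb2 had 395 counts in replicate 1 and 168 in replicate 2, a scaled ratio of 0.302 with an exact 95% interval of 0.248 to 0.359 that covers counting error only. No read of this gene is shared, as its posterior SD was 0 in both libraries. Pcdhb3, the next gene on the chromosome, had 426 and 402 counts and a log2 ratio of -0.59. The third lowest was Pcdha2, with 686 and 680 counts and a log2 ratio of -0.52. Pcdha1 and Pcdha2, neighbours in the genome, thus lay at opposite ends of the alpha cluster's range.

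The exact counting interval of the scaled ratio left out 1 for 42 of the 57 genes (73.7%), close to the 70.9% of all genes averaging 10 counts or more. Among beta genes, whose reads are almost never shared, 15 of 21 did so. These are differences between 2 libraries and not between conditions.

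**Figure D5:**
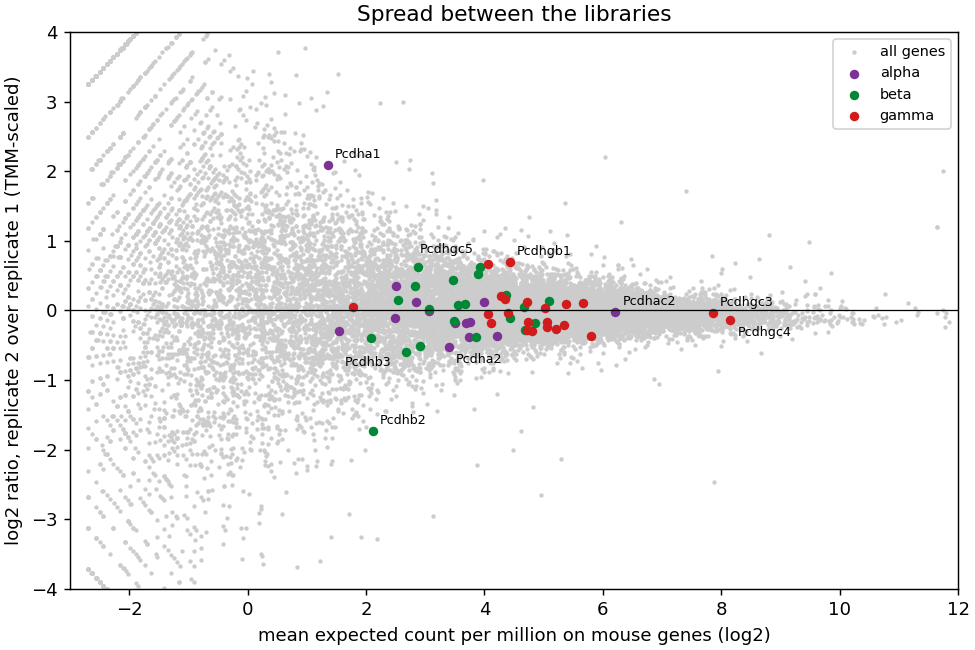
Each point is a gene, with its mean expected count as a log2 CPM value on the x axis and the TMM-scaled log2 ratio of replicate 2 over replicate 1 on the y axis, in grey for all genes averaging 10 counts or more. Of these, 300 lie outside the axes. Coloured alpha, beta and gamma genes lie mostly within the grey cloud, with Pcdha1 at 2.09 and Pcdhb2 at -1.73 as the extremes, while Pcdhgc3 and Pcdhgc4 sit near 0.

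Other genes whose exons overlap those of members took few counts. The sums below leave out genes of the locus without such overlap, such as Gm36858 with 117 and 382 counts in replicates 1 and 2. On the opposite strand, 9 genes overlap exons of 13 members, and they summed to 524 counts in replicate 1 and 546 in replicate 2. BC037039, opposite Pcdhgc3, had 159 and 245 counts beside 12633 and 17460 for Pcdhgc3. On the same strand, 5 further genes share exons with members, such as read-through transcripts that join alpha or gamma exons under another name, and they summed to 274.58 and 142.51 counts. Whether counting used strand is not stated. All 9 opposite-strand genes had whole counts in both libraries, whereas Gm38182 on the same strand had 247.14 and 142.51. Pcdhb12, opposite Gm37446, had a posterior SD of 0 in both libraries. How reads of overlapping genes on opposite strands were assigned was not tested further. Taf7, a general transcription factor gene between the beta and gamma clusters, had 2.06 and 1.58 TPM, and Slc25a2 beside it had 0.10 and 0.11 TPM.

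The non-clustered protocadherins, related adhesion genes that lie outside the clusters, were higher per gene. Clustered genes had medians of 2.54 and 1.93 TPM, beside 20.34 and 14.81 TPM for 12 non-clustered genes, all of them detected. The sums were nearly equal, at 250.9 and 170.2 TPM for the 58 clustered genes and 259.8 and 167.2 TPM for the 12 others. Pcdh9 was the highest of these by mean level with 49.67 and 24.66 TPM, followed by Pcdh7 (38.42 and 25.33 TPM), Pcdh10 (37.32 and 26.18 TPM) and Pcdh8 (35.70 and 19.73 TPM). Pcdhgc3, with 35.72 and 24.71 TPM, lay among these 4 genes in both libraries. Pcdhgc4, with 48.27 and 30.82 TPM, was below Pcdh9 in replicate 1 and above all 12 in replicate 2. Pcdh12 (1.73 and 1.59 TPM) and Pcdh20 (2.94 and 2.32 TPM) were the lowest of the 12.

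Genes known to act on these promoters or below these receptors were nearly all present. Of 25 regulators of promoter choice and chromatin, 24 were detected in both libraries, with medians of 9.14 and 6.91 TPM. For this list and those below, the share detected among all protein-coding genes was 54.7%. The lists were chosen with earlier results known. CTCF itself, Ctcf, had 7.64 and 6.88 TPM. The highest were Trim28, a corepressor of repeats and silenced genes (134.83 and 107.98 TPM), the histone methyltransferase Ehmt2 (88.53 and 59.29 TPM), the cohesin loader Mau2 (26.98 and 20.50 TPM) and the DNA methyltransferase Dnmt3a (25.20 and 15.66 TPM). Dnmt3b, a methyltransferase known to act on these promoters in early mouse embryos, was the one not detected, with 0.83 and 0.47 TPM, and the neuronal gene repressor Rest was next lowest with 2.52 and 1.74 TPM.

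Of 22 partners and effectors, 21 were detected, with medians of 16.01 and 11.57 TPM. Marcks, an actin-linked substrate of protein kinase C, was highest at 110.29 and 65.31 TPM. It was followed by Abi2 (70.06 and 48.55 TPM), Abi1 (61.05 and 34.47 TPM) and Brk1 (50.06 and 40.48 TPM), subunits of the WAVE complex that drives actin branching. Lowest were the kinase Ptk2b, known to be inhibited by the shared cytoplasmic ends, with 1.18 and 0.51 TPM, and Wasf2 with 4.10 and 2.69 TPM. Its relative Ptk2, inhibited in the same way, had 9.96 and 6.21 TPM. Of 18 neighbouring genes on the chromosome, 15 were detected, with medians of 6.01 and 4.93 TPM, from Rell2 (69.91 and 43.40 TPM), Hdac3 (46.34 and 32.04 TPM), Pcdh1 (24.46 and 18.04 TPM) and Hars (20.30 and 13.24 TPM) down to Dnd1 (0.38 and 0.72 TPM) and Slc25a2.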

How the data were processed

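Total RNA of P0 mouse hindbrain was sequenced as 2 libraries of stranded read pairs, per the labels. Per the deposited file notes, tables per gene and per transcript were made on genome build mm10 with GENCODE release M4, and which programs aligned and quantified the reads is not given in the sources used here. The deposited expected counts are estimates that need not be whole, as reads fitting several transcripts are divided among them, and the authors' TPM values divide them by effective length. The authors' percent column divides the TPM of a gene over its transcripts. Posterior SDs of the count and TPM interval bounds were used as deposited, as score values whose interval level is not stated.

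GENCODE release M21, on the same build, supplied symbols, exons and sequence, and the deposited length of all 88 transcripts equalled that in M21. Transcript windows and identities were computed from its transcripts. For ratios between libraries, expected counts were rounded, rows naming no mouse gene (1.28% and 1.09% of counts) were left out, and edgeR 4.0.16 TMM factors were used with a prior count of 2 on genes averaging 10 counts or more. Alternatives were size factors from DESeq2 1.42.0, spike-ins and total counts. The ratio and identity steps were tested on simulated data. Detection means at least 1 TPM in both libraries, and a count of 0 is set against a floor of 3 counts. Intervals of ratios are exact (Clopper-Pearson, 95%) and cover counting error only. They hold no term for spread between libraries or for the division of shared reads. The reads carry no molecular identifiers.

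Named were the C-type genes, the 4 highest and 2 lowest of each cluster by mean TPM, the 3 highest and 3 lowest ratios, the first and last alternate genes, and the 4 highest and 2 lowest of each other list. Further genes named in the text were picked after their values were seen. Members and lists were chosen with earlier results of these data known. Marker sums not given in the report, in replicates 1 and 2, were 1742 and 1158 TPM for neurons, 106.3 and 81.97 TPM for Purkinje cells, 93.53 and 80.63 TPM for the granule cell lineage, 573.8 and 398.3 TPM for astrocytes and radial glia, 87.83 and 70.96 TPM for the oligodendrocyte lineage, 28.24 and 21.45 TPM for microglia, 67.39 and 42.23 TPM for endothelium, 27.66 and 19.87 TPM for meninges, 321.4 and 341.7 TPM for choroid plexus and 744.8 and 603.4 TPM for erythroid cells.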

Additional observations from a re-analysis of the deposited data

How the results depend on the processing

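Of 62 alternative values, 50 stayed within the spread between the libraries (for counts, within 1.5 times), 9 moved beyond it and 3 changed sign. For rank correlations, a small fixed margin was allowed where that spread was smaller. Some of the 50 could not come out otherwise. With 2 libraries, a share or posterior SD from 1 library alone always lies within that spread of the mean. A filter at 50 counts kept the same 57 genes. Detection in 1 library alone or at 0.5 TPM could only keep or raise the count of 43. The 50 are therefore no measure of robustness. A threshold of 2 TPM left 27 of the 43 detected genes, and 0.5 TPM gave 53. Expected counts, which carry no length correction, gave shares of 12.8% for alpha, 18.8% for beta and 38.6% for C-type genes. Full-length forms alone, with beta genes kept whole, gave 11.1% for alpha, 23.4% for beta, 65.5% for gamma and 34.9% for C-type genes. This alternative was chosen after the data were seen. The order of the clusters was gamma, beta, alpha under each of these. The correlation of order with level in the alternate alpha genes was -0.21 without replicate 1 and -0.151 without replicate 2. With the alpha C-type genes included it became 0.0022, so this weak value depended on the set of genes. In the gamma cluster it lay from -0.0439 to 0.0825 when either library was left out, so it has no direction there. In the beta cluster it moved to 0.82 with expected counts. Spike-in scaling raised the median log2 ratio of all genes to 0.11 and of the clustered protocadherins from -0.04 to 0.058. That change of sign lay within the spread between the libraries. The gap between clustered protocadherins and all genes was -0.05 under each scaling. A change of scaling shifts every gene nearly alike, so this gap could not move. No paired analysis was possible because the series holds 1 group. With 2 libraries an SD rests on 1 difference, and the genes with the fewest counts, such as Pcdhb1, Pcdha1, Pcdha8 and Pcdhgb8, are the least precisely measured.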
